A study of Homo sapiens with 4 samples.

Results

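Small nucleolar RNA (snoRNA) host genes were examined for loss of H3K4me3 in MDA-MB-231 cells after treatment with Tat-SID. The set, drawn from GENCODE genes on GRCh37, was every gene whose symbol is SNHG followed by a number, together with GAS5 and ZFAS1, which gave 30 of the 64486 annotated genes. All 30 were annotated as lncRNA genes, and they lay on 15 chromosomes. A host gene was counted when a region with reduced H3K4me3 lay within 3 kb of the gene start or of any of its annotated transcription start sites (TSS). At 2.5 μM Tat-SID, 8 of the 30 host genes had such a region, namely SNHG1, SNHG3, SNHG5, SNHG8, SNHG26, SNHG32, ZFAS1 and GAS5, beside 5.3% of all annotated genes. At 1 μM, 0 of the 30 did, beside 0.36% of all genes.

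All values come from a single established line, MDA-MB-231, which was derived from a human breast carcinoma of the triple-negative class. Tat-SID is a decoy peptide that joins the SIN3 interaction domain of the repressor MAD to a Tat nuclear localization signal and so competes for the PAH2 domain of SIN3 proteins. Native ChIP-Seq of H3K4me3 was carried out on untreated cells and on cells that received the peptide at 1 μM or at 2.5 μM. Each condition has 1 library, input DNA has another, and the treatment is described as lasting 3 days. The lists of regions with reduced H3K4me3 held 141 regions at 1 μM and 2063 at 2.5 μM, both against the same untreated library, and 3 regions were listed as increased at 2.5 μM. The lists hold positions only, with no read number, fold change or FDR, so depth is unknown, the size of a reduction cannot be given, and without replicates no difference between conditions was tested. The lists name changed regions only, so the identity of the cells could not be checked against marker genes, and a host gene without a region may have kept its mark, lost it below the threshold or had none in untreated cells.

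After splicing, introns that carry a snoRNA are trimmed to it. SnoRNAs bind a small set of proteins, and many guide the chemical modification of ribosomal RNA. Many box C/D snoRNAs (SNORD genes) direct ribose methylation, and many box H/ACA snoRNAs (SNORA genes) direct pseudouridylation. Not every snoRNA of either class is such a guide. The spliced exons of many hosts code for no protein and are broken down by nonsense-mediated decay, while some, such as those of GAS5, act as long noncoding RNAs. Many host genes, like ribosomal protein genes, start transcription at a C inside a short run of pyrimidines, the oligopyrimidine tract, which ties their RNA to growth signals. H3K4me3 marks the start sites of transcribed genes.

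The 8 start sites with reduced H3K4me3 are shown because each one lies inside its region. Each line gives 40 bases before the TSS of the canonical transcript and 40 bases from the TSS on, read 5′ to 3′ on the strand of the gene from GRCh37. Capitals mark an oligopyrimidine tract (a C followed by at least 4 pyrimidines, beginning within 10 bases of the TSS) and, where present before the TSS, the letters TATATA.
GAS5, chr1:173837088-173837167, minus strand: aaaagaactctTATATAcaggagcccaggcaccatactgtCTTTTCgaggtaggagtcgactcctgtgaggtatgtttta
ZFAS1, chr20:47895139-47895218, plus strand: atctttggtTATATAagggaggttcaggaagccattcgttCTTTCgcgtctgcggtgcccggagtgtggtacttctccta
SNHG5, chr6:86388427-86388506, minus strand: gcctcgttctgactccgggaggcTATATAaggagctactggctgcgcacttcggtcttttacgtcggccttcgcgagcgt
SNHG1, chr11:62623355-62623434, minus strand: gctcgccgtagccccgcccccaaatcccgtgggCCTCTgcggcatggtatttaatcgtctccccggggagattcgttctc
SNHG8, chr4:119199823-119199902, plus strand: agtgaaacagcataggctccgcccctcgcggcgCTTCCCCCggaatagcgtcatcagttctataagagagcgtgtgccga
SNHG3, chr1:28832452-28832531, plus strand: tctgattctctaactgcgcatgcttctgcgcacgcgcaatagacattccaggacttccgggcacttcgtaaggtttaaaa
SNHG26, chr7:22893738-22893817, plus strand: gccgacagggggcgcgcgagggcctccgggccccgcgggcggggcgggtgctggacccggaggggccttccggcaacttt
SNHG32, chr6:31802345-31802424, plus strand: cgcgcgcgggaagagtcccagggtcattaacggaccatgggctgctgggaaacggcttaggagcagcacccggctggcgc
A tract began within 10 bases of the canonical TSS in 4 of these 8 hosts, and in GAS5 and ZFAS1 its C was the annotated first base of the RNA. In SNHG1 and SNHG8 the tract began 7 bases before the annotated start. That of SNHG1 ended before the start, and that of SNHG8 reached it with its last base only. Over all 30 hosts the tract was found in 12 (40%), beside 30.4% of the 55004 annotated genes with a canonical TSS that could be read. It was found in 40.9% of the other genes that hold a snoRNA gene. At the gene start, the position first planned, it was found in 7 of the 30 hosts (23.3%). There the share was 29.1% of all genes and 32.2% of lncRNA genes. Tracts of 8 or more bases at the canonical TSS were found in 6.67% of the hosts and 7.79% of all genes. The other genes that hold a snoRNA gene had them in 18.6%. The letters TATATA, which read the same on both strands, were looked for only after these sequences had been seen. They were present in the 40 bases before the TSS of SNHG5, ZFAS1 and GAS5, in 0 of the 22 hosts without a region, in 1.28% of all genes with a reduced region and in 1.09% of all genes. A match to these letters is a description of the sequence and was not tested.

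The 8 snoRNA genes that the GRCh37 annotation places inside these regions were 7 box C/D genes and 1 box H/ACA gene. Their sequences are shown on the strand of the host, 5′ to 3′, because they are the products that the reduced regions enclose. In the box C/D genes, capitals mark the C box letters TGATGA where found within the first 20 bases and the D box letters CTGA within the last 20 bases. In SNORA73B, capitals mark an H box and the ACA letters near the 3′ end.
SNORD78, chr1:173834760-173834824, minus strand: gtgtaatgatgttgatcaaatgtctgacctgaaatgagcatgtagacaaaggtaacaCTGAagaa
SNORD12C, chr20:47895477-47895565, plus strand: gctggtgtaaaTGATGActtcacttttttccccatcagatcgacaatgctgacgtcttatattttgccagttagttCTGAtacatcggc
SNORD12B, chr20:47896856-47896946, plus strand: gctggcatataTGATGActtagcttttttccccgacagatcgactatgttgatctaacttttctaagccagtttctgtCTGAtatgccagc
SNORD12, chr20:47897220-47897309, plus strand: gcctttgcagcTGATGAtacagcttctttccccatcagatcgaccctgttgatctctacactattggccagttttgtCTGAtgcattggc
SNORD48, chr6:31803040-31803103, plus strand: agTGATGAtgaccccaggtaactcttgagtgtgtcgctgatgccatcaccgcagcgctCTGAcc
SNORD52, chr6:31804853-31804919, plus strand: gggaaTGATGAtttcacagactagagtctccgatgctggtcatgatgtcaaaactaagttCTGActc
SNORD93, chr7:22896232-22896305, plus strand: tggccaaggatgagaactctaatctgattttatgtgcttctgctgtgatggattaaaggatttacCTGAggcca
SNORA73B, chr1:28835071-28835274, plus strand: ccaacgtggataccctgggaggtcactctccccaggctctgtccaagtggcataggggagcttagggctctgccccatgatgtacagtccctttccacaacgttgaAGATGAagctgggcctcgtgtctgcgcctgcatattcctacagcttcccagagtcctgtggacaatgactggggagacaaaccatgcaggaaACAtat
Both boxes were found by these exact letters in 5 of the 7 SNORD genes inside the regions and in 51.4% of the 389 SNORD genes annotated. SNORD12C, SNORD12B and SNORD12, the 3 snoRNAs of ZFAS1, have similar lengths of 89, 91 and 90 bases. SNORD78 of GAS5 and SNORD93 of SNHG26 hold the D box letters but not the strict C box letters within the window searched.

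The 8 of 30 host genes with a reduced region at 2.5 μM came to 26.7% (exact Clopper-Pearson 95% confidence interval 12.3% to 45.9%, which covers counting error only). By the same rule 5.3% of all annotated genes, 4.9% of lncRNA genes and 10.8% of protein-coding genes had one. Promoters rich in CpG dinucleotides had regions more often, at 14.7% of genes with a CpG promoter and 16.2% of lncRNA genes with one. A CpG promoter is here a GC content over 50% and an observed to expected CpG ratio over 0.6 within 1 kb on each side of the gene start. The interval of the host genes lay above the share of all genes and held the shares of both CpG promoter classes. Of the 20 host genes with a CpG promoter 5 had a region (25%, 8.66% to 49.1%), and of the 10 without one 3 did (30%, 6.67% to 65.2%).

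The 1 μM list gave 0 of 30 host genes, which allows a share of up to 10% by a count of 3, beside a background of 0.36% of all genes, 0.449% of lncRNA genes, 0.674% of protein-coding genes, 1% of genes with a CpG promoter and 1.54% of lncRNA genes with one. At this background a count of 0 among 30 genes is not a result about the hosts. The nearest 1 μM region to any host lay 421 kb from SNHG25, and the median distance was 6738 kb over the 27 hosts on chromosomes that carry such regions. No region at a host gene overlapped a 1 μM region. The 3 increased regions lay no nearer than 5903 kb to any of the 9 hosts on their chromosomes.

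**Figure D1:**
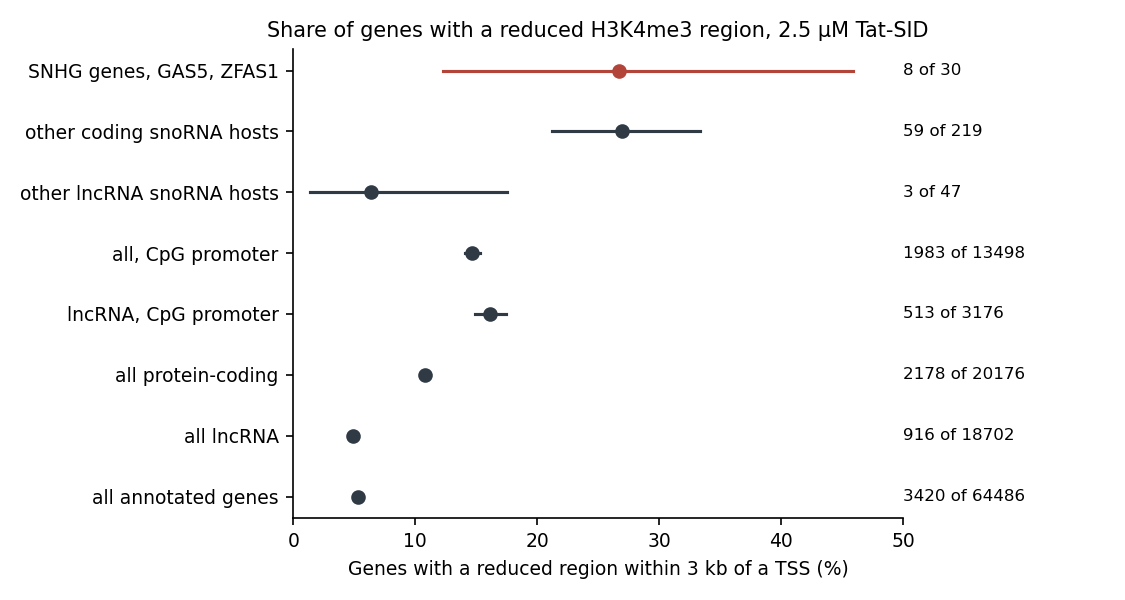
Percent of genes with a region of reduced H3K4me3 within 3 kb of a TSS at 2.5 μM Tat-SID (x axis) for snoRNA host genes (red, top row) and other gene classes (dark), with the number of genes printed at the right. Points are shares and lines are exact Clopper-Pearson 95% intervals for counting error: the host genes stood at 26.7%, close to the 26.9% of other protein-coding genes that hold a snoRNA gene, and all annotated genes at 5.3%.

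Many snoRNA genes have hosts outside this named group, most of them protein-coding. Counting every other gene with a SNORA or SNORD gene on its own strand within its span gave 280 hosts, of which 62 (22.1%, 17.4% to 27.5%) had a reduced region at 2.5 μM. The share was 26.9% (21.2% to 33.3%) in 219 protein-coding hosts, 28.5% (21.4% to 36.4%) in 151 hosts with a CpG promoter and 6.38% (1.34% to 17.5%) in 47 lncRNA hosts. The interval of the 30 named hosts held the first 2 of these shares and not the last, and the intervals of both lncRNA classes overlapped. These hosts were not all separate from the named group, since 6 of the 280 held a snoRNA gene that a named host also holds, and 2 of the 62, RCC1 with SNHG3 and the lncRNA gene ENSG00000285565 with SNHG32, were counted through a region of a named host. Without the 6, a choice made after the data were seen, the shares were 60 of 274 (21.9%, 17.1% to 27.3%) in all, 58 of 215 (27.0%, 21.2% to 33.4%) in protein-coding hosts and 2 of 46 (4.35%, 0.531% to 14.8%) in lncRNA hosts. At 1 μM, 2 of the 280 had a region, namely RABGGTB, which encodes the beta subunit of a Rab geranylgeranyl transferase, and KMT2E, which encodes a protein of the trithorax-related family. The 2.5 μM region of RABGGTB, at chr1:76251001-76257299, enclosed SNORD45C, SNORD45A and SNORD45B, and that of KMT2E enclosed no snoRNA gene. Of the 5 other hosts with the most annotated snoRNA genes, the imprinted MEG8, with 51, and MIR493HG, with 18, had no region. TAF1D, with 8, and GNL3, with 5, had regions that enclosed 0 of them. EIF4A2, which encodes an RNA helicase of translation initiation, had a region of chr3:186499301-186509049 that enclosed all 5 of its snoRNA genes, the most in any region of the list.

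All 8 host genes had a region over the gene start and over the canonical TSS itself, so that the 3 kb window decided none of them. The 9 regions at the 8 genes ranged from 3449 to 8599 bp with a median of 6999 bp. Of the 9, 7 were longer than 4949 bp, the median of the 2063 regions. The regions that also held a protein-coding TSS of another gene were 6649 to 8599 bp long. Those without a TSS of another gene within 3 kb, at SNHG26, SNHG8 and the TSS of SNHG32, were 3449, 4699 and 5099 bp. The regions of the other genes that hold a snoRNA gene, described above, had a median of 5174 bp. Distances below are given along the strand of each gene from its canonical TSS.

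GAS5, a growth-arrest transcript and a well known noncoding RNA, had a region at chr1:173832451-173839099 of 6649 bp. It began 1972 bp before the TSS and ended 4676 bp after it. It enclosed exons 1 to 11 of 12, left the last exon outside and covered 54.0% of the annotated span of the gene. All 13 annotated TSS of the gene lay inside, as did SNORD78, 2303 bp from the TSS. ZBTB37, a zinc finger gene on the opposite strand, has a TSS 93 bp away within the same region. The lifted annotation holds 1 snoRNA gene in GAS5, whereas RefSeq lists 11, 10 SNORD genes and SNORA103.

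ZFAS1 is a noncoding RNA transcribed away from ZNFX1, a zinc finger helicase gene of the opposite strand. Its region, at chr20:47891751-47900349, was the longest of the group at 8599 bp, and 153rd by length in the whole list. It reached from 3428 bp before to 5170 bp after the canonical TSS. It held exons 1 to 4 of 5 and 6 of 7 annotated TSS, but 26.3% of the annotated span of the gene. SNORD12C, SNORD12B and SNORD12 lay 298, 1677 and 2041 bp from the TSS, the most snoRNA genes in 1 region of this group. A TSS of ZNFX1 lay 216 bp from the canonical TSS of ZFAS1, within the region.

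SNHG1, whose introns carry a run of box C/D snoRNAs and whose spliced exons were an early example of a host without a protein product, had a region at chr11:62618451-62626199 of 7749 bp. It extended 2805 bp before and 4943 bp after the TSS and covered the whole gene, all 11 exons and all 26 annotated TSS. SLC3A2, the heavy chain of amino acid transporters, has an annotated TSS 82 bp away on the opposite strand. The canonical TSS of SLC3A2 lies 24974 bp away, outside the region. The lifted annotation places no snoRNA gene in SNHG1, and RefSeq lists 8, SNORD22 and SNORD25 to SNORD31 without a gap.

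SNHG5, a host of the SNORD50 pair, had a region at chr6:86384501-86391649 of 7149 bp, from 3183 bp before to 3965 bp after the TSS. It held exons 1 to 4 of 6 and 13 of 15 annotated TSS, but 14.6% of the annotated span of the gene, which runs for 28442 bp. A protein-coding gene model without a symbol, ENSG00000271793, has an annotated TSS 15 bp away on the same strand. The canonical TSS of that model lies 35770 bp away, outside the region. The lifted annotation places no snoRNA gene in SNHG5, and RefSeq lists SNORD50A and SNORD50B.

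SNHG32 was the single host with 2 regions. The nearer, at chr6:31801551-31806649, was 5099 bp long, lay from 834 bp before to 4264 bp after the TSS and enclosed exons 1 to 3 of 4 and both annotated snoRNA genes, SNORD48 at 655 bp and SNORD52 at 2468 bp. The other, at chr6:31793301-31800749, was 7449 bp long, ended 1636 bp before the TSS of SNHG32 and held the TSS of HSPA1B, a heat shock chaperone gene. HSPA1B has a near-identical paralog, so the placement of reads there is uncertain.

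SNHG26 had the shortest region of the group, 3449 bp at chr7:22893501-22896949. It began 277 bp before the TSS and ended 3171 bp after it, with exons 1 to 3 of 6 and SNORD93, 2454 bp from the TSS, inside. All 13 annotated TSS lay inside, and no other gene had a TSS within 3 kb of the region.

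SNHG3 and SNHG8 host box H/ACA snoRNAs. RefSeq lists SNORA73A and SNORA73B in SNHG3 and SNORA24 in SNHG8, of which the lifted annotation holds SNORA73B only. SNHG3 had a region at chr1:28830851-28837849 of 6999 bp, from 1641 bp before to 5357 bp after the TSS, which covered its whole span with 3 exons and SNORA73B at 2579 bp. It shares its start with RCC1, a chromatin-bound exchange factor gene on the same strand with a TSS at the same base. SNHG8 had a region at chr4:119198151-119202849 of 4699 bp, from 1712 bp before to 2986 bp after the TSS, with exons 1 and 2 of 3 whole and part of exon 3. This region covered 45.2% of the annotated span of SNHG8. It lay by itself, with no TSS of another gene within 3 kb.

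**Figure D2:**
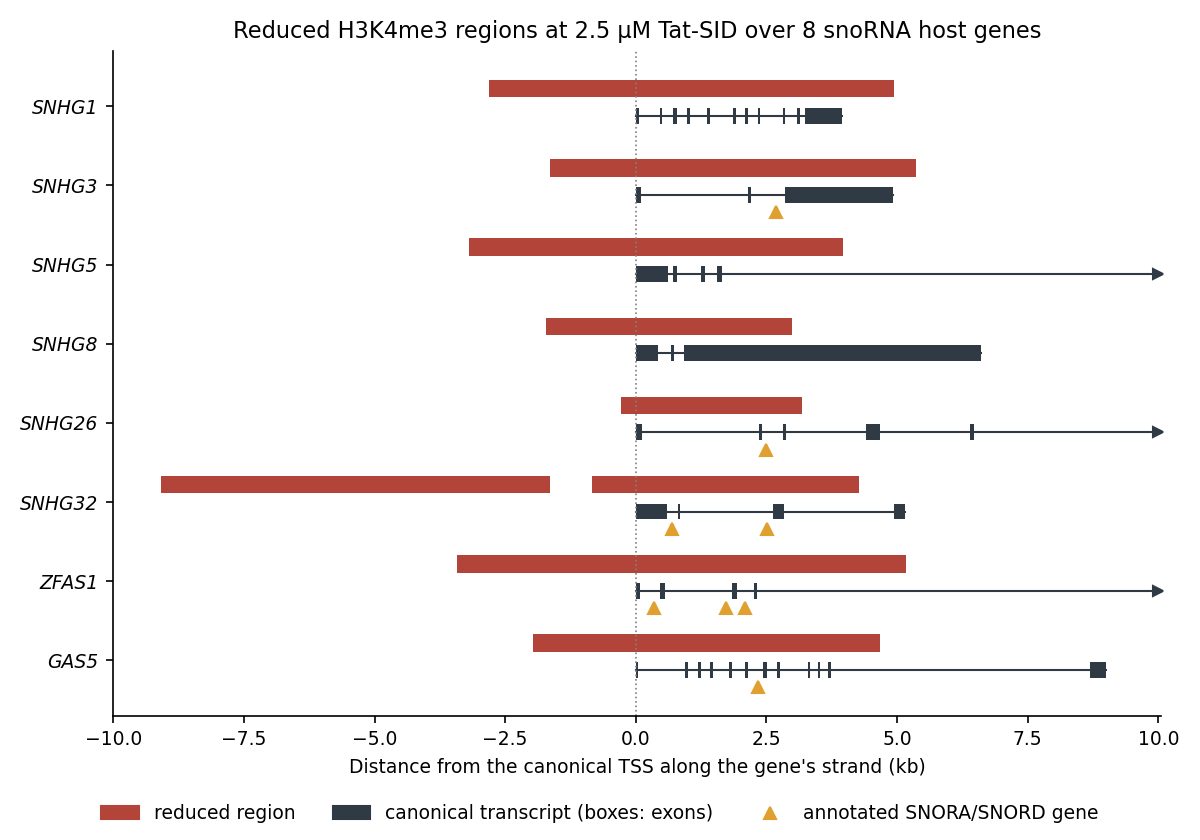
Regions of reduced H3K4me3 at 2.5 μM Tat-SID (red bars) over the canonical transcripts of the 8 host genes (dark lines, boxes for exons, arrowheads for transcripts that run past the plot), with annotated SNORA and SNORD genes as yellow triangles. The x axis is the distance in kb from the canonical TSS along the strand of the gene. Each gene has a region across 0, and SNHG32 has a further region that ends 1636 bp before its TSS.

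The 8 annotated snoRNA genes inside these regions were all the snoRNA genes that the lifted annotation gives for the 8 hosts, and all were on the strand of the host. They lay 298 to 2579 bp from the canonical TSS, with a median of 2172 bp. Across the genome, 41 of 787 annotated SNORA and SNORD genes (5.21%) lay inside a region reduced at 2.5 μM, in 19 regions, and 8 of those 41 (19.5%) were in regions at the named hosts. At 1 μM the number was 3. The annotations differ in both directions. Among the 8 hosts, the lifted annotation lacks snoRNA genes that RefSeq gives for SNHG1, SNHG3, SNHG5, SNHG8 and GAS5. It also lacks some for hosts without a region, such as SNHG6, SNHG7 and SNHG29. In the other direction it holds 1 each in SNHG27 and SNHG28, where RefSeq has none, and 787 in all against 539 in RefSeq. The counts of enclosed snoRNA genes given here may therefore be too low. By RefSeq, in which all 30 hosts were matched by symbol on another assembly (GRCh38.p14), the 8 hosts hold 30 snoRNA genes, 26 SNORD and 4 SNORA. SNHG1 and GAS5 supply 19 of the 30. All 30 hosts together hold 141 in RefSeq, of which the 30 make 21.3%, and SNHG14, without a region, holds 83 of the 141. Without SNHG14 the share was 30 of 58 (51.7%) in RefSeq and 8 of 24 (33.3%) in the lifted annotation. Of the 22 hosts without a region, 16 hold a SNORA or SNORD gene in RefSeq. The other 6 (SNHG10, SNHG20, SNHG21, SNHG22, SNHG27 and SNHG28) hold none under these symbols. Small RNA genes with other symbols were not counted, so these 6 may still host one.

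**Figure D3:**
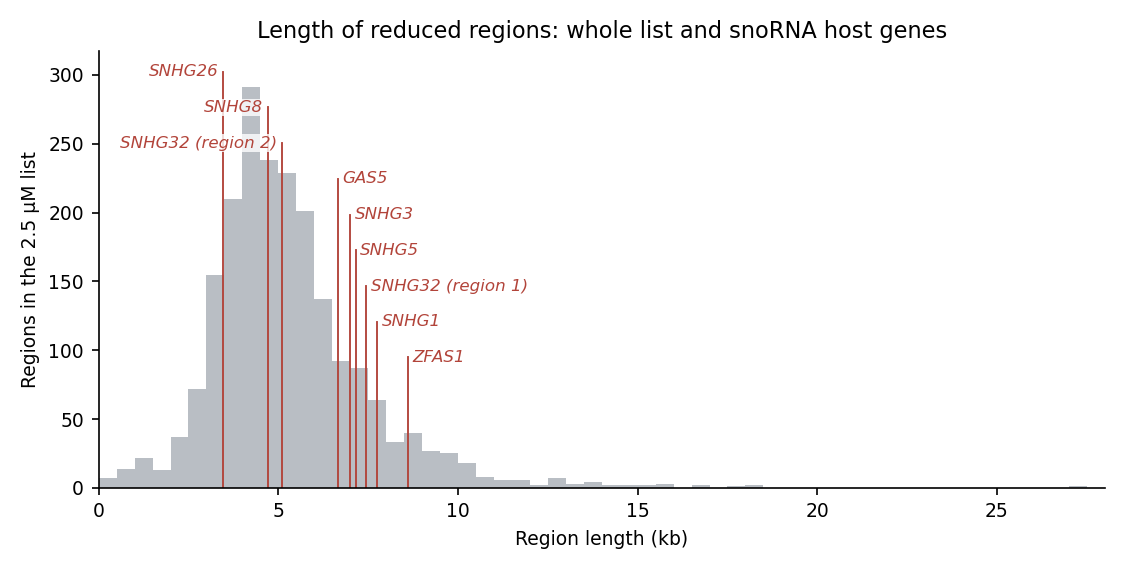
Number of regions in the 2.5 μM list by length (grey histogram, 0.5 kb bins), with the 9 regions at host genes as red lines labelled by gene. Line height has no meaning. The host gene regions ran from 3449 bp (SNHG26) to 8599 bp (ZFAS1), and 7 of the 9 lay above the list median of 4949 bp. The regions at SNHG26, SNHG8 and the TSS of SNHG32 (region 2), with no TSS of another gene within 3 kb, were 3449, 4699 and 5099 bp.

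A region can lie on more than 1 start site. At 6 of the 8 hosts a region also lay within 3 kb of a TSS of another gene, and at all 6 that gene was, or included, a protein-coding gene whose TSS was inside the region. SLC3A2, ZNFX1 and ZBTB37 start on the opposite strand from SNHG1, ZFAS1 and GAS5, and RCC1 and ENSG00000271793 on the same strand as SNHG3 and SNHG5. Any annotated TSS of these partners counted, and the canonical TSS of SLC3A2 and ENSG00000271793 lay outside the regions. At SNHG32 the shared region was the one that did not cover its TSS. The H3K4me3 of the host and of these partners cannot be told apart in these lists, and at SNHG8, SNHG26 and the TSS of SNHG32 the host was the only gene other than its snoRNAs with a TSS within 3 kb.

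The 22 hosts without a region had none within 10 kb either. SNHG30, host of SNORD7, came nearest at 18.4 kb, from a region at AP2B1, a clathrin adaptor gene. SNHG4 lay 66.8 kb from a region at PAIP2, SNHG12 lay 68.8 kb from the region shared by SNHG3 and RCC1, and SNHG15 lay 99.5 kb from one at PURB. SNHG12 and SNHG3 thus sit on the same stretch of chromosome 1, the latter with a region and the former without. From there 14 hosts lay between 171 kb, for SNHG16, and 763 kb, for SNHG28, from the nearest region, and 4 lay over 1000 kb away: SNHG10, SNHG21, SNHG14 and SNHG7. The median of the 22 was 367 kb. SNHG14, the long imprinted host that carries the SNORD115 and SNORD116 clusters and 72 annotated snoRNA genes in all, lay 4448 kb from its nearest region, at TJP1. SNHG22 lay 321 kb from a region over RPL17, a ribosomal protein gene, which itself enclosed SNORD58C, SNORD58A and SNORD58B. SNHG29 lay 220 kb, SNHG6 257 kb and SNHG25 275 kb away. SNHG16 and SNHG20, at 171 and 347 kb, shared their nearest region, at SRSF2, a splicing factor gene, as SNHG17 and SNHG11 did at RPRD1B and TTI1, 386 and 411 kb away. SNHG19 and SNHG9, at 524 and 715 kb, shared one at KCTD5. SNHG27 lay 345 kb, SNHG31 473 kb, SNHG18 702 kb, SNHG10 2338 kb, SNHG21 2574 kb and SNHG7 5907 kb from a region.

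**Figure D4:**
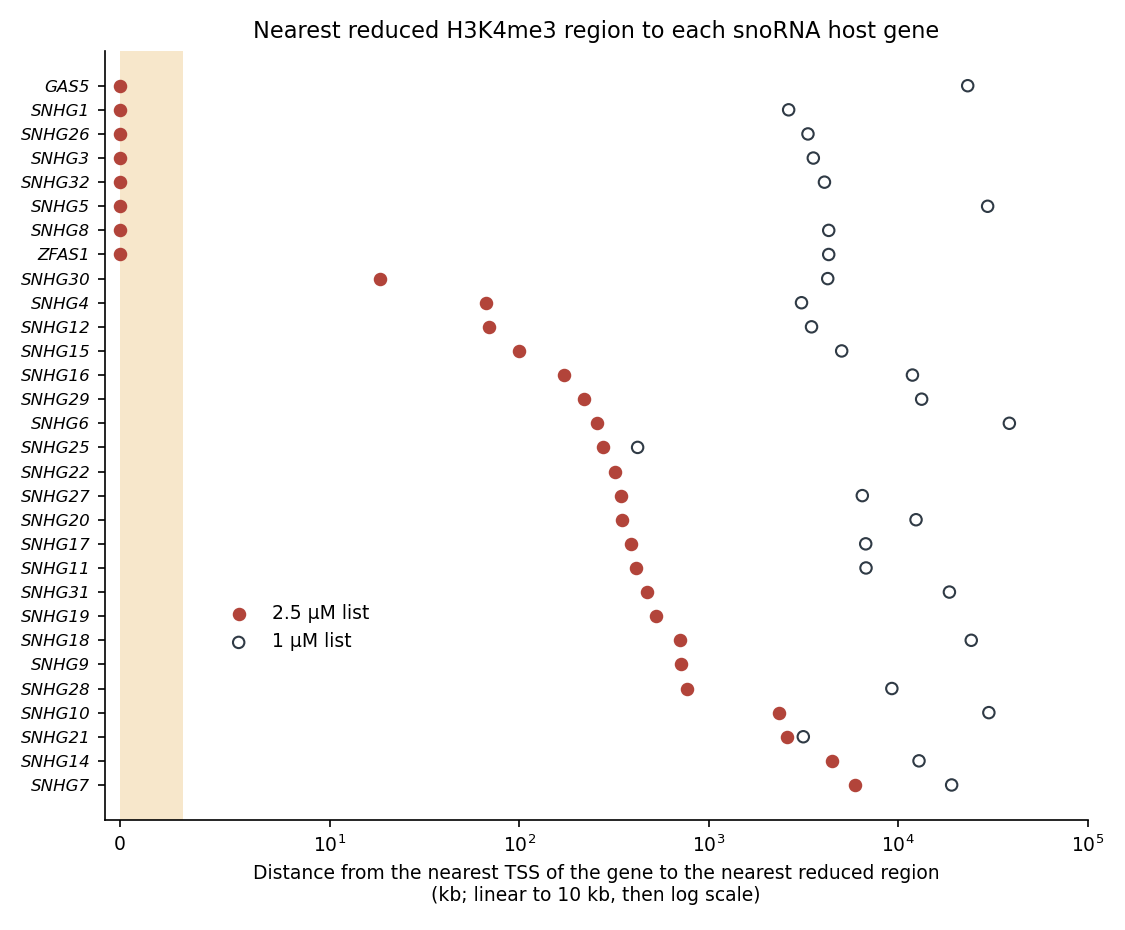
Distance in kb from the nearest TSS of each of the 30 host genes to the nearest region of reduced H3K4me3 (x axis, linear to 10 kb and logarithmic beyond), for the 2.5 μM list (filled red) and the 1 μM list (open circles, absent where the chromosome has no such region). The shaded band is the 3 kb window: 8 genes sit in it at 0 kb, the other 22 start at 18.4 kb, and no 1 μM point is nearer than 421 kb.

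The promoters of the host genes were richer in CpG dinucleotides than most, with a CpG promoter in 20 of 30 (66.7%) beside 21.0% of all genes and 58.0% of all genes with a region. From 250 bases before to 50 bases after the gene start, the median GC content was 60.7% in the 30 hosts and 49.3% in all genes. It was 62.8% in the 8 hosts with a region and 59.5% in the 22 without. SNHG1, SNHG3 and SNHG8 missed the CpG promoter definition by their GC content, at 49.975%, 49.9% and 47.0%, and not by their CpG ratio. The E-box CACGTG, which reads the same on both strands and is bound by MAX paired with MYC or with MAD proteins, was looked for in the same 300 bases. It was present in 0 of the 8 hosts with a region and in 5 of the 22 without (SNHG7, SNHG9, SNHG25, SNHG29 and SNHG30), beside 5.53% of all genes and 7.51% of genes with a region. The window follows the gene start, and in GAS5, ZFAS1 and SNHG5 it ended before the canonical TSS shown above. The same held for some hosts without a region, such as SNHG6. Neither GC content nor the E-box was examined in such a window around the canonical TSS. The absence of these letters from the window says nothing about the binding of a factor.

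**Figure D5:**
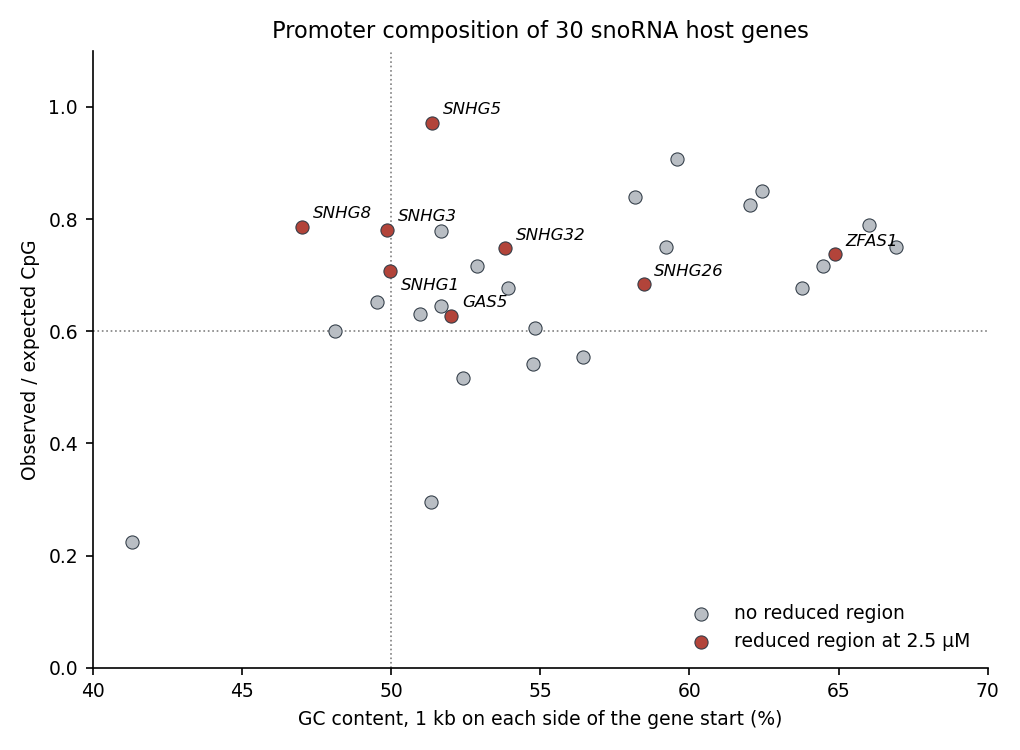
GC content in percent (x axis) and observed to expected CpG ratio (y axis) within 1 kb on each side of the gene start for the 30 host genes, red and named with a reduced region at 2.5 μM, grey without. Dotted lines mark the CpG promoter definition, 50% and 0.6. Red and grey points overlap on both axes, and 5 of 8 red points and 15 of 22 grey points lie past both lines.

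The proteins that bind snoRNAs, their assembly factors and the decay factors for host transcripts were followed in 24 genes, of which 2 (8.33%, 1.03% to 27.0%) had a reduced region with the higher dose and 0 with the lower. This interval held the background of 5.3% of all genes and 10.8% of protein-coding genes. NOP56 and NOP58, the 2 genes with a region, encode core proteins of box C/D particles. NOP56 had a region at chr20:2631501-2635849 of 4349 bp, which also enclosed SNORD110 and SNORA51 of its own span. NOP58 had a region at chr2:203129401-203135049 of 5649 bp, and is itself a host of 4 annotated snoRNA genes, none of them inside. The other box C/D proteins, the methyltransferase FBL and SNU13, had none, with the nearest regions 1184 and 818 kb away. The 4 box H/ACA proteins (the pseudouridine synthase DKC1, NHP2, NOP10 and GAR1) had none. Neither did any of the 9 assembly factors (NAF1, SHQ1, RUVBL1, RUVBL2, NOLC1, PIH1D1, ZNHIT3, ZNHIT6 and NUFIP1), of which SHQ1 was nearest to a region at 24.7 kb. The 7 decay factors followed (UPF1, UPF2, UPF3A, UPF3B, SMG1, SMG5 and SMG6) had none either, and UPF3B was nearest at 16.1 kb.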

How the data were processed

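H3K4me3 was measured by native ChIP-Seq in untreated MDA-MB-231 cells and in cells given Tat-SID at 1 μM or 2.5 μM, with 1 library each and input DNA. The authors checked reads with FastQC (0.10.0), aligned them to hg19 with Bowtie (1.0.0), keeping reads that match several places at 1 of them, and compared treated with untreated cells with SICER-df. MACS2 (2.1.0) made their browser tracks, which were not used. The deposited lists hold region positions and no score, and their names carry an FDR of 1e-15. The study's results text gives the same FDR for reduced promoters, while its methods text gives a less strict threshold. The study's summary of ChIP quality was not used here, so the depth of the libraries is unknown.

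Positions were printed from 1, after chromosome lengths were checked against GRCh37. Gene models were those of GENCODE release 44, lifted to GRCh37. RefSeq names came from GRCh38.p14 and gave symbols and which gene holds which, with no positions. A snoRNA gene was inside when its whole length lay in a region. Shares have exact Clopper-Pearson 95% intervals. The code that places regions on genes was checked on simulated data with 2000 genes, and 200 of 200 planted regions were recovered with 0 wrong. The regions were planted by the same 3 kb rule on genes set far apart. The check therefore covers the code and not regions shared by neighbouring genes. The host genes, the 24 snoRNP and decay genes and the features were chosen with earlier results of these data known. Every host is accounted for, and of the other snoRNA hosts those with a 1 μM region and the 5 with the most snoRNA genes were named. Alternatives were the TSS window, the gene start alone, a minimum length of 1000 bp, merging within 3000 bp, and the genes counted. All 24 were named. The list first held 1 more gene, which is not reported here. The work used Python 3.11.15, numpy 2.4.6, scipy 1.17.1, pysam 0.24.0 and matplotlib 3.10.9.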

Additional observations from a re-analysis of the deposited data

How the results depend on the processing

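The count of 8 host genes at 2.5 μM and of 0 at 1 μM was the same when a region had to cover a TSS, when the window was 10 kb, when the gene start alone was used, when regions under 1000 bp were left out and when regions within 3000 bp were merged, and the 8 genes were the same in each of these. The share of all genes, 5.3% with the 3 kb window, was 4.89% when a region had to cover a TSS, 6.35% with 10 kb and 4.84% with the gene start alone. It was 4.90% in lncRNA genes, 10.8% in protein-coding genes, 14.7% in genes with a CpG promoter and, in a class added after the data were seen, 16.2% in lncRNA genes with a CpG promoter. The host count stood above each of these shares, and its interval held the last 2. No paired analysis was possible because there is 1 library per condition and no replicate to leave out. The 8 hosts rest on 1 list made at 1 threshold against 1 untreated library, and no alternative used here can show how a further library would change it. Depth is unknown, and the lists hold no value by which a threshold could be moved.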
